A study of Homo sapiens with 8 samples.

Results

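AURKA, AURKB, PLK1, BIRC5, INCENP, CDCA8, TPX2, NEK2, CDC25C and FOXM1 were chosen by symbol as kinases and partners of mitosis. The rule uses no measured value, but it was written with earlier results of these data known. All 10 were found by Ensembl identifier among the 60230 genes of the count table, and all 10 passed the filter on low counts that left 13404 genes for testing. RNA was sequenced from HepG2 cells, an established human liver cancer line, that overexpress the drug-metabolizing enzyme CYP3A4. All 4 groups consisted of these cells, with 2 replicates per group. One group received the solvent DMSO at 0.2%, and the others received compound 4 (called metylcresol in the labels), compound 5 (tetrabut) or compound 6 (cyclohexil) for 24 h, each at its own IC50, the concentration that brought cell viability to the midpoint in an assay with a longer exposure than that of the RNA samples. The compounds are antioxidants added to plastics. In compounds 4 and 6, phenol rings are joined by a methylene bridge, with a tert-butyl group on each ring of compound 4 and a cyclohexyl group in its place in compound 6. Compound 5 has an ethane-derived bridge and more tert-butyl groups on each ring. The line is a transfected cancer line, and the molar concentrations differed between the compounds.

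Cells enter mitosis when cyclin-dependent kinase activity rises in G2, which CDC25C, a phosphatase, promotes by removing inhibitory phosphates. PLK1 and AURKA, with the AURKA activator TPX2, mature the centrosomes and build the spindle, and NEK2 separates the centrosomes. The chromosomal passenger complex, made of the kinase AURKB with INCENP, BIRC5 (survivin) and CDCA8 (borealin), corrects faulty attachments of chromosomes to the spindle and later acts in cytokinesis. FOXM1 is a forkhead transcription factor that activates many genes of G2 and mitosis. Transcripts of these genes are most abundant in G2 and mitosis, so in RNA from a whole culture a change in the share of cells in these phases and a change in RNA per cell cannot be told apart. Cell cycle phases were not analysed here.

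The libraries held between 9472261 and 13308975 counts, and the 10 genes had between 120 and 3728 counts in each library. Levels are given as CPM, the counts of a gene relative to the size of its library, after TMM scaling, which corrects for library composition. All 11 hepatocyte markers examined were above 1 CPM in every sample. CYP3A4 had 198 and 207 CPM in DMSO, 287 and 216 after compound 4, 371 and 421 after compound 5, and 170.5 in both samples after compound 6. The summed hepatocyte markers were 46125 and 43712 CPM in DMSO, between 34822 and 36407 in compound 4, compound 5 and replicate 2 of compound 6, and 42435 in replicate 1 of compound 6. At an adjusted p under 0.05 (edgeR), 3 of these markers fell and 2 rose after compound 4 (APOA2 by 0.51 and TTR by 0.66 on the log2 scale). After compound 5, 4 fell and 0 rose, and after compound 6, 2 fell and 0 rose. Over all tested genes 5.42%, 14.2% and 1.6% fell after compounds 4, 5 and 6, and 6.5%, 13.9% and 2.8% rose. The marker medians were -0.29, -0.30 and -0.09. The median after compound 4 was -0.13 without compound 4 replicate 1 and -0.42 without its replicate 2. After compound 6 it was -0.0008 without DMSO replicate 1 and -0.18 without DMSO replicate 2. Of 10 markers of other liver cells, 4 were above 1 CPM in every sample, namely LYZ (1854 to 2993 CPM), KRT19 (74.0 to 168), CD68 (27.2 to 57.6) and ACTA2 (7.06 to 18.9), and PTPRC of leukocytes and COL1A2 of mesenchymal cells had no counts in any sample. KRT19 rose by 0.72, 0.56 and 0.85 after compounds 4, 5 and 6 and CD68 by 0.80 after compound 4, while ACTA2 fell by 1.20 and LYZ fell by 0.47 after compound 5. The summed level of these 10 markers was 3141 and 2501 CPM in DMSO and between 2020 and 2839 CPM in the treated samples. The part of these marker levels in the results was not tested. Replicate 2 of compound 6 had lower values than replicate 1 for all 10 genes (see the comparison of replicates), so the values of the 10 genes and the counts of the other lists for compound 6 are also given without it. The labels do not state that replicates were separate cultures, so p-values measure only the spread between these samples. The main fit did not include the day, and a fit with the replicate number, and so the day, as a block is given further on.

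The promoters are shown first, because elements shared by genes of G2 and mitosis lie close to their starts. The RefSeq table (GRCh38.p14), with windows from 250 bases before to 50 bases after each annotated start, held 6 of the 10 genes: AURKB, PLK1, INCENP, CDCA8, NEK2 and CDC25C. Both strands were searched for the letters TTTGAA and TTCGAA of the cell cycle genes homology region (CHR), for CCAAT, the NF-Y box, and for TGTTTA, a forkhead core. TTTGAA was found in PLK1, CDCA8, INCENP and CDC25C, 4 of 6 genes, and in 18.2% of all 27305 genes of that table. CCAAT was found in 6 of 6 genes and in 39.7% of all genes. A CHR and CCAAT together were found in the same 4 genes and in 7.85% of all genes. TTCGAA and TGTTTA were in no window of the 6 genes, against 1.82% and 14.7% of all genes. The 120 bases before the start of the 4 genes with TTTGAA are printed 5′ to 3′ with TTTGAA and CCAAT on either strand (ATTGG as read here) in capitals. PLK1 lies on the plus strand at chr16:23678769-23678888, CDCA8 on the plus strand at chr1:37692396-37692515, INCENP on the plus strand at chr11:62123891-62124010, and CDC25C on the minus strand at chr5:138331805-138331924.
PLK1: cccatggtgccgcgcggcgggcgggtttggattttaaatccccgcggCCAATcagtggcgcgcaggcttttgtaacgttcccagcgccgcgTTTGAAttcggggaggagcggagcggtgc
CDCA8: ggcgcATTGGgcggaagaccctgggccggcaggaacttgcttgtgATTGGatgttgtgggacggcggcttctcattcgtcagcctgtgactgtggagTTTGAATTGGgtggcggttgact
INCENP: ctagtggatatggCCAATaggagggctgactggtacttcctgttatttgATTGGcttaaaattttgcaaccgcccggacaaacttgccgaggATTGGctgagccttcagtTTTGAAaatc
CDC25C: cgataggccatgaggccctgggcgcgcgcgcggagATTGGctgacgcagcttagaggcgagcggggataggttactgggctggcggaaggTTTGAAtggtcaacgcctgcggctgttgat

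In these windows TTTGAA began 29 bases before the annotated start in PLK1, 23 bases before it in CDCA8, 10 bases before it in INCENP and 30 bases before it in CDC25C. All 4 matches read in the direction of transcription. In CDCA8 the last A of TTTGAA is also the first base of a reverse CCAAT. CDC25C has 4 windows in the table, and 2 of them hold TTTGAA, at the same genomic place. Among the other gene lists, TTTGAA was in 12 of 16 G2/M genes with a window, in 10 of 16 partners of the Aurora and Polo kinases, and in 5 of 8 other mitotic kinases. It was in 4 of 10 transcription factors of these programmes, 2 of 10 phosphatases and their inhibitors and 2 of 8 hepatocyte markers. It was in 0 of 14 G1/S genes, 0 of 11 paralogs, 0 of 8 brakes on mitotic entry and 0 of 3 markers of other liver cells. TTCGAA was in 1 of the 14 G1/S genes. A match describes the letters only and does not show that a factor binds.

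Transcripts of the mitotic kinases and the passenger complex were lower after each of the 3 compounds than in DMSO. After compound 4 all 10 genes fell (edgeR quasi-likelihood test, Benjamini-Hochberg adjusted p under 0.05), where 5.42% of all tested genes fell. Their median log2 fold change was -1.03, beside 0.00 over all tested genes. After compound 5, 9 of 10 fell, with a background of 14.2%, and their median was -0.65 beside -0.03 over all genes. After compound 6 all 10 fell, with a background of 1.6%, and the median was -0.71 beside 0.00. In each comparison both treated samples of all 10 genes lay under both DMSO samples. This was so for 27.1% of all tested genes after compound 4, 37.3% after compound 5 and 26.6% after compound 6. The 3 comparisons share the DMSO samples and are not independent of each other. Ranked among the fold changes of all tested genes, the 10 genes lay within the lowest 4.11% after compound 4 and the lowest 4.56% after compound 6. After compound 5 they reached up to the lowest 24.4%, with a median of 13.6%. Where a gene is named as having the largest or the smallest of the 10 changes, the next gene in rank lay within its SE.

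The fit was less firm for compounds 5 and 6 when single libraries were left out, and the 1 sample left in a group was then assumed to vary like the other groups. For compound 4 all 10 genes fell in each of these 8 fits. For compound 5 the median change of the 10 genes was -0.54 without its replicate 1 and -0.59 without DMSO replicate 2. Among the 10 genes the number that fell after compound 5 was smaller in these fits, as was the share of all tested genes. For compound 6 it was 0 without DMSO replicate 1, DMSO replicate 2 or its own replicate 2, and between 8 and 10 in the others. In these 3 fits all 10 genes had an unadjusted p under 0.05, and the number of all tested genes that fell was 19, 0 and 9. The median change after compound 6 was -0.54 without its replicate 2 and -0.84 without its replicate 1. Without replicate 2 all 10 values were negative and 0 passed. They were -0.46 for AURKA, -0.48 for TPX2, -0.73 for AURKB, -0.46 for INCENP, -0.60 for BIRC5, -0.54 for CDCA8, -0.56 for PLK1, -0.53 for NEK2, -0.68 for CDC25C and -0.54 for FOXM1, with adjusted p between 0.143 and 0.341 (edgeR).

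**Figure D1:**
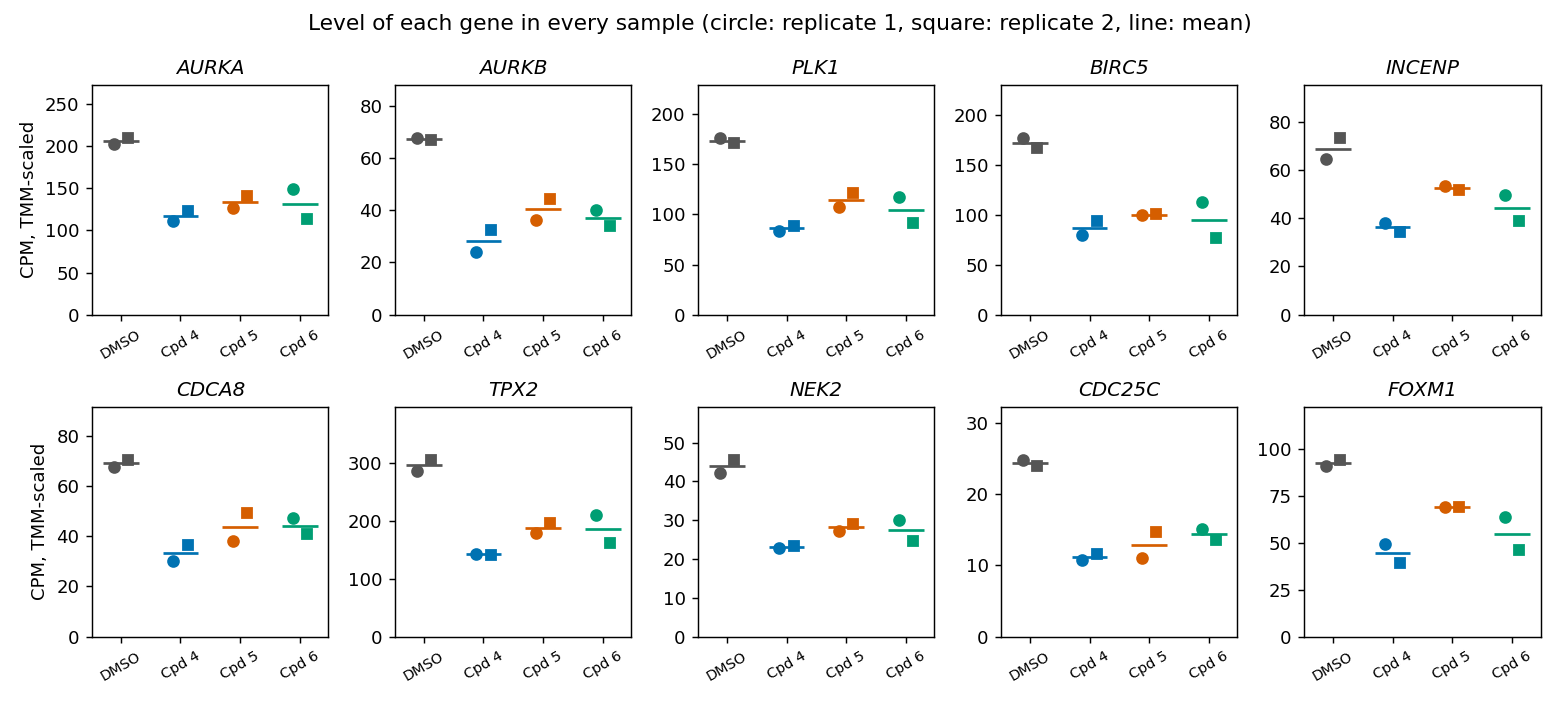
Level of each of the 10 genes in CPM after TMM scaling (y axis, from 0) in the DMSO, compound 4, compound 5 and compound 6 groups (x axis); circles are replicate 1, squares are replicate 2 and the line is the mean of the 2 samples. All treated points lie under both DMSO points in every panel, and the square of compound 6 lies under its circle in every panel.

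AURKA, which matures the centrosomes and assembles the spindle poles, is encoded on chromosome 20 (chr20:56369389-56392337, minus strand, GRCh38). Its level was 203 and 210 CPM in DMSO, 111 and 123 CPM after compound 4, 126 and 141 CPM after compound 5, and 149 and 113 CPM after compound 6. The compound 6 samples overlapped those of both other compounds, and all treated samples lay under DMSO. AURKA fell by 0.82 ± 0.14 (SE) on the log2 scale after compound 4 (adjusted p = 0.0038, edgeR), which was the smallest of the 10 changes with this compound. It fell by 0.63 ± 0.13 after compound 5 (adjusted p = 0.00671, edgeR) and by 0.65 ± 0.13 after compound 6 (adjusted p = 0.026, edgeR). Of the 31-base words in AURKA transcripts, 16.2% also occur in other genes, most of them in RAB3GAP2, which shares 11.9% and had between 37.0 and 65.8 CPM before TMM scaling, and its processed copy AURKAP1 shares 9.06%. AURKAP1 had 3 counts in 1 sample and no counts in the other samples, at which depth 3 counts correspond to between 0.225 and 0.317 CPM.

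TPX2, which activates AURKA and targets it to spindle microtubules, was the most abundant of the 10 transcripts. It lies on the same chromosome (chr20:31739271-31801805, plus strand). Its level was 286 and 306 CPM in DMSO, 143 and 141 CPM after compound 4, 179 and 197 CPM after compound 5, and 211 and 163 CPM after compound 6. The compound 4 samples were nearly equal and lay under all others. TPX2 fell by 1.06 ± 0.13 (SE) on the log2 scale after compound 4 (adjusted p = 0.00101, edgeR), by 0.66 ± 0.13 after compound 5 (adjusted p = 0.00403) and by 0.67 ± 0.13 after compound 6 (adjusted p = 0.0183).

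Among the 4 subunits of the chromosomal passenger complex, the kinase AURKB (chr17:8204733-8210600, minus strand) had the largest change after compound 4. AURKB had 67.6 and 66.7 CPM in DMSO, 23.9 and 32.6 CPM after compound 4, 36.3 and 44.4 CPM after compound 5, and 40.1 and 34.0 CPM after compound 6. Both compound 4 samples were under every other sample. AURKB fell by 1.25 ± 0.16 (SE) on the log2 scale after compound 4 (adjusted p = 0.00139, edgeR), the largest of the 10 changes, and its mean was then 42.1% of that in DMSO. After compound 5 the mean was 60.1% of DMSO (log2 fold change -0.73, adjusted p = 0.00677), and after compound 6 it was 55.2% (log2 fold change -0.86, adjusted p = 0.0166).

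INCENP, the scaffold that binds and activates AURKB (chr11:62123973-62153163, plus strand), had the smallest change of the 10 genes after compound 5. Its level was 64.5 and 73.2 CPM in DMSO, 38.1 and 34.4 CPM after compound 4, 53.4 and 51.7 CPM after compound 5, and 49.6 and 38.8 CPM after compound 6. The 4 groups did not overlap in this gene, in the order DMSO, compound 5, compound 6 and compound 4. INCENP fell by 0.93 ± 0.14 (SE) after compound 4 (adjusted p = 0.00212, edgeR) and by 0.64 ± 0.13 after compound 6 (adjusted p = 0.0273). After compound 5 it fell by 0.39 ± 0.13 (adjusted p = 0.0492), a call that held in 6 of 10 alternatives and in 4 of 8 fits that left out a library. It was lost with the replicate number as a block (adjusted p = 0.0541), with DESeq2, with RLE scaling and at the cutoff of 0.01, and without either DMSO or either compound 5 replicate, and its values in these fits ran from -0.48 to -0.27.

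BIRC5, or survivin, an inhibitor-of-apoptosis family protein that docks the complex on chromosomes, lies at chr17:78214186-78225636 on the plus strand. It had 177 and 167 CPM in DMSO, 79.6 and 93.9 CPM after compound 4, 99.5 and 101 CPM after compound 5, and 113 and 76.6 CPM after compound 6. The compound 6 samples spanned all compound 4 and compound 5 samples. BIRC5 fell by 0.99 ± 0.16 (SE) after compound 4 (adjusted p = 0.0038, edgeR), by 0.78 ± 0.16 after compound 5 (adjusted p = 0.00567) and by 0.86 ± 0.16 after compound 6 (adjusted p = 0.0176).

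CDCA8, or borealin, which binds BIRC5 and INCENP in the same module (chr1:37692418-37709719, plus strand), had 67.7 and 70.6 CPM in DMSO, 30.01 and 36.5 CPM after compound 4, 38.3 and 49.1 CPM after compound 5, and 47.4 and 41.1 CPM after compound 6. Both compound 4 samples were under all others, while compounds 5 and 6 overlapped. CDCA8 fell by 1.06 ± 0.15 (SE) after compound 4 (adjusted p = 0.00181, edgeR), by 0.66 ± 0.15 after compound 5 (adjusted p = 0.00764) and by 0.65 ± 0.15 after compound 6 (adjusted p = 0.0358).

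To set the subunits beside each other, levels were divided by the length of the merged exons. AURKB then made up 34.1% and 33.8% of the summed level of the 4 subunits in DMSO, and 28.0% and 31.9% after compound 4. BIRC5 made up 36.9% and 34.9% in DMSO and 38.5% and 37.9% after compound 4. INCENP was the least abundant subunit per length in every sample, with 10.8% and 12.3% in DMSO, 15.3% and 13.2% after compound 5, and 12.8% in both samples after compound 6. The AURKB share was thus lower in both compound 4 samples than in DMSO, and the INCENP share was higher in both samples of compounds 5 and 6 than in DMSO. After compound 4 INCENP made up 14.8% and 11.2%, which overlapped DMSO. AURKB also overlapped DMSO, with 31.4% and 34.3% after compound 5 and 31.2% and 33.9% after compound 6. CDCA8 made up 18.2% and 19.0% in DMSO and 19.7% and 21.8% after compound 6. These shares were not tested.

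PLK1, the Polo kinase of mitotic entry and spindle assembly (chr16:23677656-23690367, plus strand), had 176 and 171 CPM in DMSO, 83.4 and 88.5 CPM after compound 4, 107 and 121 CPM after compound 5, and 117 and 91.6 CPM after compound 6. Compound 4 samples lay under all others. PLK1 fell by 1.01 ± 0.13 (SE) on the log2 scale after compound 4 (adjusted p = 0.00129, edgeR), by 0.60 ± 0.13 after compound 5 (adjusted p = 0.00624) and by 0.73 ± 0.13 after compound 6 (adjusted p = 0.0135).

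NEK2, the centrosome kinase (chr1:211658657-211675630, minus strand), had 42.1 and 45.6 CPM in DMSO, 22.8 and 23.2 CPM after compound 4, 27.2 and 29.05 CPM after compound 5, and 30.1 and 24.6 CPM after compound 6. As for PLK1, both compound 4 samples lay under the rest. NEK2 fell by 0.93 ± 0.13 (SE) after compound 4 (adjusted p = 0.00184, edgeR), by 0.64 ± 0.13 after compound 5 (adjusted p = 0.00491) and by 0.69 ± 0.13 after compound 6 (adjusted p = 0.0181). It shares 17.5% of its 31-base words with other genes, the highest share of the 10, so part of its reads could be assigned elsewhere.

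CDC25C, the phosphatase that activates the mitotic cyclin-dependent kinase (chr5:138285265-138338355, minus strand), was the least abundant of the 10 genes. It had 24.8 and 23.9 CPM in DMSO, 10.7 and 11.5 CPM after compound 4, 10.999 and 14.6 CPM after compound 5, and 15.1 and 13.6 CPM after compound 6. The treated groups overlapped except for compound 4 and compound 6. CDC25C fell by 1.13 ± 0.16 (SE) after compound 4 (adjusted p = 0.00184, edgeR), by 0.92 ± 0.16 after compound 5 (adjusted p = 0.00212), the largest of the 10 changes with that compound, and by 0.77 ± 0.16 after compound 6 (adjusted p = 0.0254).

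FOXM1, the transcription factor of the group (chr12:2857681-2877155, minus strand), had 91.2 and 94.3 CPM in DMSO, 49.5 and 39.2 CPM after compound 4, 69.3 and 69.2 CPM after compound 5, and 63.6 and 46.2 CPM after compound 6. Its compound 5 samples were nearly equal and lay between DMSO and all samples of the other compounds. FOXM1 fell by 1.07 ± 0.16 (SE) after compound 4 (adjusted p = 0.00215, edgeR) and by 0.76 ± 0.16 after compound 6 (adjusted p = 0.0253). After compound 5 its log2 fold change was -0.42 ± 0.15 (adjusted p = 0.0629), the only 1 of the 30 changes from DMSO that missed the threshold. With the replicate number as a block it passed (adjusted p = 0.0497, edgeR). It passed in 5 of all 10 alternatives, over which its adjusted p ranged from 0.00346 to 0.0771. When single libraries were left out its value ran from -0.44 to -0.37.

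**Figure D2:**
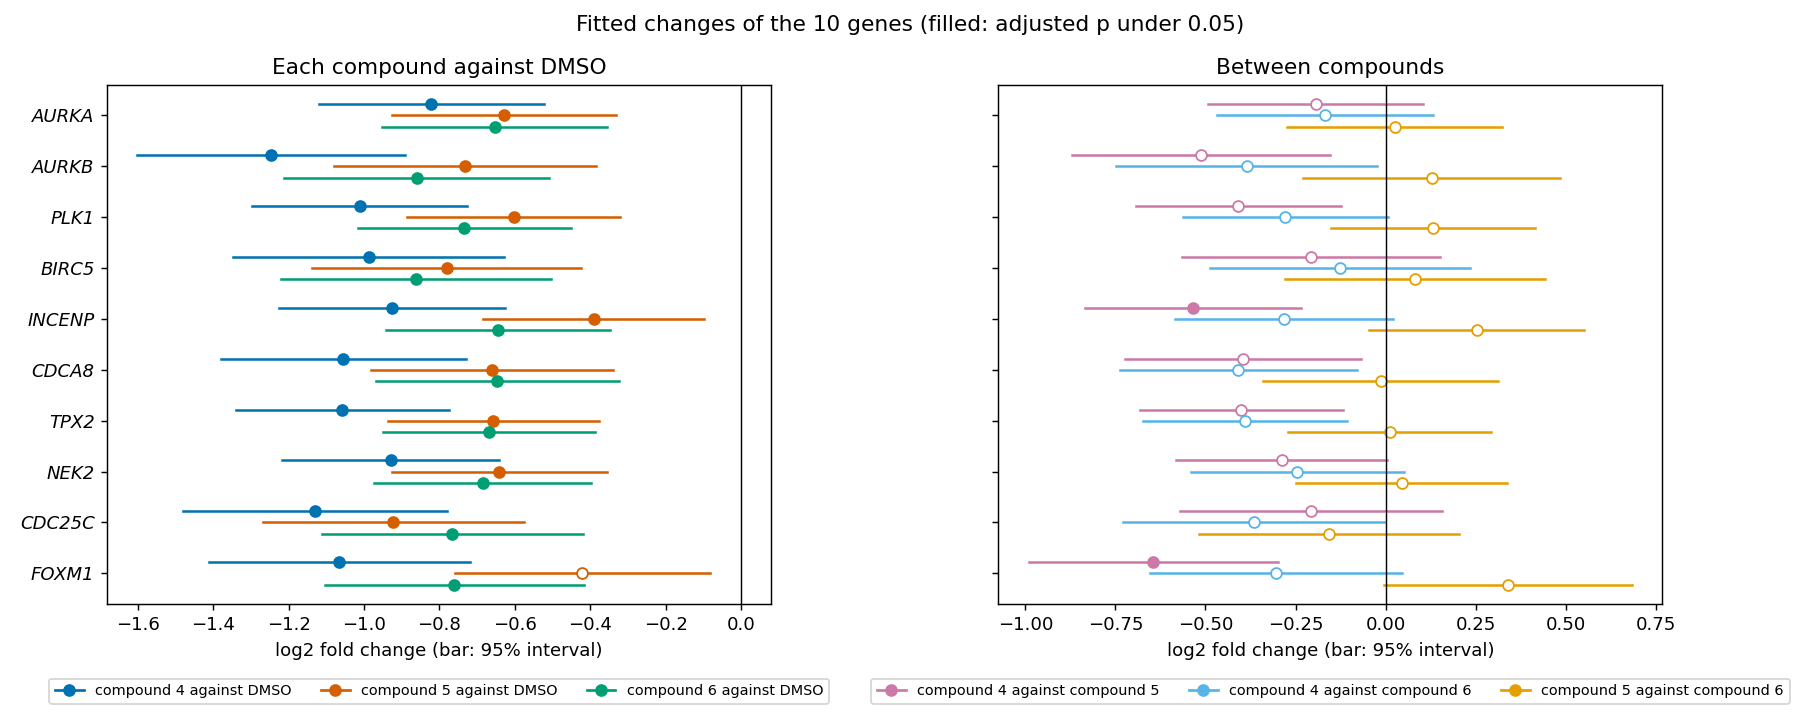
Fitted log2 fold change with its 95% interval (x axis) for each of the 10 genes (y axis), for each compound against DMSO on the left and between compounds on the right; filled points have an adjusted p under 0.05. On the left all intervals lie under 0 and the point of FOXM1 after compound 5 is the open one; on the right the filled points are INCENP and FOXM1 in compound 4 against compound 5.

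Per kilobase of merged exons in DMSO, TPX2 was highest at 82.2 ± 3.9 CPM per kb (SD, n = 2), followed by PLK1 at 77.8 ± 1.7 and AURKA at 75.5 ± 1.8. BIRC5 had 54.0 ± 2.2 and AURKB 51.1 ± 0.48 CPM per kb. CDCA8 had 28.0 ± 0.82, FOXM1 25.4 ± 0.60, INCENP 17.4 ± 1.6, NEK2 15.3 ± 0.86 and CDC25C 9.48 ± 0.25 CPM per kb. The spindle kinases and TPX2 were thus the most abundant per length, and neighbours in this order such as PLK1 and AURKA were within their spread of each other. Across the groups the order of means was DMSO, compound 5, compound 6 and compound 4 for 8 genes. For CDCA8 and CDC25C compounds 5 and 6 changed places. DMSO stood apart from the next group in all 10 genes, and compounds 5 and 6 overlapped in 8 of them, with INCENP and FOXM1 apart.

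The compounds were then compared with each other in 3 pairs, which were matched in exposure time and in the use of each compound's IC50, but not in molar concentration. The viability of the sequenced samples was not analysed here. Compound 4 differs from compound 5 in the bridge and in the groups on the rings. All 10 genes had lower values after compound 4 than after compound 5, and 2 passed the test, where 13.9% of all tested genes differed and 6.91% were lower. FOXM1 was lower by 0.64 on the log2 scale (interval -0.99 to -0.30, adjusted p = 0.0261, edgeR). INCENP had a log2 fold change of -0.54 (interval -0.84 to -0.23, adjusted p = 0.0302). The next were AURKB at -0.51 (interval -0.87 to -0.15, adjusted p = 0.0586) and PLK1 at -0.41 (interval -0.69 to -0.12, adjusted p = 0.0575), which did not pass. In 9 of the 10 genes both compound 4 samples lay under both compound 5 samples, as for 28.3% of all tested genes, and CDC25C overlapped. The count of 2 was between 0 and 6 under other settings. It also moved when single libraries were left out, as did the number of all tested genes that differed. The median of the 10 genes then ran from -0.50 to -0.28.

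Compounds 4 and 6 share the methylene bridge and differ in the tert-butyl and cyclohexyl groups. No gene of the 10 passed with edgeR, and 4 had an unadjusted p under 0.05. DESeq2 and limma-voom also called 0, with 3 genes each at an unadjusted p under 0.05. Over all tested genes edgeR called 0.0448%, or 6 genes, where DESeq2 called 72, limma-voom 5 and edgeR without a filter on low counts 294. The median log2 fold change of compound 4 against compound 6 was -0.29, and the lowest value was that of CDCA8 at -0.41 (interval -0.74 to -0.08). In 7 of 10 genes both compound 4 samples lay under both compound 6 samples, against 17.7% of all tested genes, and AURKA, BIRC5 and FOXM1 overlapped. For BIRC5 the interval ran from -0.49 to 0.23 on the log2 scale and for AURKA from -0.47 to 0.13, so differences of that size remain possible. This comparison moved with the replicates of compound 6. Without its replicate 2 the median was -0.45, with 9 genes at an unadjusted p under 0.05, and without its replicate 1 it was -0.12, with 0 genes; no gene passed after adjustment in either fit.

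Compounds 5 and 6 differ in the bridge and in the ring groups. None of the 10 genes passed with edgeR and 0 had an unadjusted p under 0.05, while DESeq2 and limma-voom called 0 with 1 gene each at an unadjusted p under 0.05. In the background 9.91% of all tested genes differed. The median log2 fold change was 0.06, with values between -0.16 for CDC25C and 0.34 for FOXM1. The interval for FOXM1 ran from -0.01 to 0.68 and that for INCENP from -0.05 to 0.55. When single libraries were left out, the FOXM1 value ran from 0.14 to 0.58 and the INCENP value from 0.10 to 0.44. Without compound 6 replicate 2 the median was -0.09, and 7 of the 10 values were negative. INCENP and FOXM1 were the genes whose compound 5 samples both lay above both compound 6 samples, as for 28.5% of all tested genes.

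The replicates of compound 6 were set beside each other because the genes moved together in them. Replicate 2 had lower values than replicate 1 in all 10 genes, with a median difference of -0.36 on the log2 scale beside 0.00 over all tested genes. In DMSO, compound 4 and compound 5 the lower value was in replicate 2 for 4, 3 and 2 of the 10 genes, with median differences of 0.05, 0.10 and 0.15. The summed level of the 10 genes was 1200.4 and 1228 CPM in DMSO, 592 and 624 after compound 4, 747 and 818 after compound 5, and 837 and 642 after compound 6. Against the mean of DMSO, the median of the 10 genes was -0.54 in replicate 1 and -0.87 in replicate 2 of compound 6. Replicate 1 thus resembled the compound 5 samples in sum and replicate 2 came close to the compound 4 samples. When each treated sample was set against the DMSO sample of its own number, all 10 genes were lower in each of the 6 pairs. The medians were -1.04 and -1.003 for compound 4, -0.70 and -0.58 for compound 5, and -0.52 and -0.91 for compound 6.

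Other genes of the same pathways were described from lists, whose counts are to be read beside the 5.42%, 14.2% and 1.6% of all tested genes that fell after compounds 4, 5 and 6. Among 17 partners and substrates of the Aurora kinases, PLK1 and the passenger complex, 15 fell after compound 4, 13 after compound 5 and 11 after compound 6, and 1 rose, after compound 5, where 6.5%, 13.9% and 2.8% of all tested genes rose after compounds 4, 5 and 6. Their medians were -0.88, -0.65 and -0.68. KIF20A, a kinesin that carries the passenger complex to the midzone of the spindle, had the lowest value after compounds 4 and 6. Its level was 70.4 and 76.3 CPM in DMSO, 22.4 and 24.9 after compound 4, 32.0 and 34.9 after compound 5, and 39.1 and 26.7 after compound 6. It fell by 1.63 ± 0.17 (SE) on the log2 scale after compound 4, and its log2 fold changes were -1.13 and -1.16 after compounds 5 and 6, all past the threshold (edgeR). HMMR, which helps to localize TPX2, was lowest after compound 5 at -1.26. At the other end AJUBA, a LIM protein that promotes AURKA activation, had a value of 0.28 after compound 4 that did not pass, and rose by 0.62 after compound 5. CEP192, a centrosomal scaffold of AURKA and PLK1, had -0.07 after compound 6 and did not pass.

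Of 14 other mitotic kinases, 6 fell after compound 4, 7 after compound 5 and 5 after compound 6. None passed as higher in the edgeR fit as given here, in DESeq2 or in limma-voom, and 0, 1 and 0 were higher at an unadjusted p under 0.05. The 1 was WEE1 after compound 5, which rose under other edgeR settings as given below. The medians were -0.70, -0.43 and -0.44. TTK, the spindle checkpoint kinase, fell by 1.15 after compound 4, the lowest value of the list, fell by 0.44 after compound 5 and fell by 0.63 after compound 6. CDK1, the cyclin-dependent kinase that CDC25C activates, was lowest after compound 5, and its log2 fold changes of -1.10, -0.93 and -0.74 after compounds 4, 5 and 6 all passed. PLK4, the kinase of centriole duplication, fell by 0.88 after compounds 4 and 6 and had -0.29 after compound 5, which did not pass. The highest values were those of NEK9 at -0.23 after compound 4, of WEE1, which inhibits CDK1, at 0.39 after compound 5 (adjusted p = 0.0616, edgeR), and of NEK7 at 0.01 after compound 6. None of these 3 values passed at the settings used here. The NEK9 value ran from -0.42 to -0.06 when single libraries were left out. The WEE1 value passed in 4 of 10 alternatives, with adjusted p from 0.0145 to 0.149, and in 3 of 8 fits that left out a library (compound 4 replicate 1, compound 4 replicate 2 or compound 5 replicate 1), with values from 0.19 to 0.58.

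Genes of the G2/M programme and of G1/S were described in the same way. Of 17 G2/M genes attributed to FOXM1 and B-MYB, 15, 10 and 9 fell after compounds 4, 5 and 6, with medians of -0.96, -0.55 and -0.68. The count after compound 6 was 14 with DESeq2. DLGAP5, a spindle protein, was lowest with each compound at -1.47, -1.08 and -0.90. Its value after compound 6 passed in 4 of 8 fits that left out a library, and was -0.58 without compound 6 replicate 2 and -1.25 without its replicate 1. PTTG1, or securin, was highest after compound 4, with -0.50, -0.46 and -0.52 after compounds 4, 5 and 6, all past the threshold. CENPA, the centromeric histone, was highest after compounds 5 and 6 at -0.28 and -0.37, which did not pass. When single libraries were left out, CENPA ran from -0.43 to -0.13 after compound 5 and from -0.54 to -0.18 after compound 6. Of 17 G1/S genes 11, 12 and 4 fell, with medians of -0.63, -0.55 and -0.54. The count after compound 6 was 10 with DESeq2. RRM2, a ribonucleotide reductase subunit, had log2 fold changes of -1.01, -0.55 and -0.63 after compounds 4, 5 and 6, all past the threshold, and GINS2 of the replicative helicase fell by 0.92 after compound 4 and fell by 1.13 after compound 5. GINS2 was at -0.74 after compound 6 and did not pass (adjusted p = 0.0779, edgeR). It passed in 3 of 10 alternatives and in 3 of 8 fits that left out a library, and ran from -1.12 without compound 6 replicate 1 to -0.40 without its replicate 2.

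Next were the transcription factors that regulate these programmes. Of 11 genes of the B-MYB, MuvB and DREAM complexes, 3 fell after compound 4, 3 after compound 5 and 0 after compound 6, and the medians were -0.22, -0.21 and -0.22. Without compound 5 replicate 1 the median after compound 5 was -0.0049. The count of 0 after compound 6 is that of edgeR, with 4 genes at an unadjusted p under 0.05, and DESeq2 called 2 and limma-voom 1. MYBL2, which encodes B-MYB, fell by 0.80 after compound 4, fell by 0.46 after compound 5 and had -0.62 after compound 6 (adjusted p = 0.051, edgeR). That value passed in 6 of 10 alternatives, with adjusted p from 8.3e-05 to 0.0652, and in 3 of 8 fits that left out a library, and ran from -0.88 without compound 6 replicate 1 to -0.37 without its replicate 2. RBL1, a pocket protein, fell by 0.68 after compound 4, fell by 0.57 after compound 5 and had -0.51 after compound 6, which did not pass. E2F4 after compound 4, LIN37 after compound 5 and RBL2 after compound 6 were highest, at 0.17, 0.35 and 0.16, and did not pass.

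Proteins that oppose mitotic kinases were then examined. Of 14 phosphatases and their inhibitors, 2 fell after compound 4, 2 fell and 1 rose after compound 5, and 0 passed after compound 6, with medians of -0.07, -0.03 and -0.06. Over all tested genes 5.42% fell after compound 4, and 14.2% fell and 13.9% rose after compound 5, so the count after compound 5 is near the background. After compound 6 edgeR gave 1 at an unadjusted p under 0.05, and DESeq2 and limma-voom called 0. CDCA2, which targets protein phosphatase 1 to chromatin in anaphase, was lowest with each compound. It fell by 1.15 after compound 4 and by 0.69 after compound 5, and had -0.72 after compound 6 (adjusted p = 0.0654, edgeR), a value that passed in 1 of 10 alternatives and in 3 of 8 fits that left out a library, and that ran from -1.003 without compound 6 replicate 1 to -0.44 without its replicate 2. After compound 4 the call was lost without DMSO replicate 2 (-0.96), and after compound 5 without DMSO replicate 2 (-0.48) or either of its own replicates. The highest values were those of PPP2CB at 0.29 and 0.40 after compounds 4 and 5 and of CDC14A at 0.33 after compound 6, which did not pass. When single libraries were left out, PPP2CB ran from 0.08 to 0.48 after compound 4 and from 0.33 to 0.51 after compound 5. CDC14A then ran from 0.09 to 0.64 after compound 6. Of 10 brakes on mitotic entry 2, 3 and 1 fell and 2, 2 and 0 rose with edgeR. After compound 6, 3 were higher at an unadjusted p under 0.05, and DESeq2 and limma-voom called 0 higher. CHEK1, the checkpoint kinase that inhibits CDC25 phosphatases, had log2 fold changes of -0.89, -0.69 and -0.70 after compounds 4, 5 and 6, all past the threshold. BTG2 fell by 0.75 after compound 5 and had -0.49 and -0.54 after compounds 4 and 6, which did not pass. SFN, a 14-3-3 protein that retains mitotic kinase complexes in the cytoplasm, rose by 0.64 after compound 4 and 0.72 after compound 5 and had 0.30 after compound 6, which did not pass. GADD45A, a stress gene, rose by 0.58 after compound 4 and 0.84 after compound 5 and had 0.45 after compound 6 (adjusted p = 0.0921, edgeR).

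Relatives of the 10 genes were described last. Of 12 paralogs, 10 passed the filter on low counts. After compound 4, 2 fell and 1 rose, after compound 5, 2 fell and 4 rose, and after compound 6, 0 fell and 1 rose with edgeR. At an unadjusted p under 0.05, 2 were lower and 2 higher after compound 6, DESeq2 also called 0 lower and 1 higher, and limma-voom called 0. Nothing is read from counts of 1 or 2 of 10 genes, beside a background of 5.42% lower and 6.5% higher after compound 4 and 14.2% lower and 13.9% higher after compound 5. Their medians were 0.03, 0.29 and 0.04. PLK3, a Polo kinase of the stress response, was higher in all treated samples, with 9.94 and 9.45 CPM in DMSO, 20.9 and 29.95 after compound 4, 34.1 and 48.7 after compound 5, and 15.4 and 28.3 after compound 6. PLK3 rose by 1.39 after compound 4 (adjusted p = 0.0122, edgeR), by 2.10 after compound 5 (adjusted p = 0.000692) and by 1.19 after compound 6 (adjusted p = 0.0496), a call that held in 7 of 10 alternatives and in 3 of 8 fits that left out a library. In those fits its value after compound 6 ran from 0.68 without compound 6 replicate 2 to 1.57 without compound 6 replicate 1. The call after compound 4 was lost without either DMSO replicate, and that after compound 5 held in all 8 fits. BIRC3, an inhibitor of apoptosis related to BIRC5, fell by 0.97 after compound 4, fell by 1.44 after compound 5, and had -0.53 after compound 6, which did not pass.

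These list counts moved in both directions when single libraries were left out. After compound 6, edgeR called 0 genes of any list without DMSO replicate 2. Without compound 6 replicate 2 only KIF20A passed (log2 fold change -0.90, adjusted p = 0.0396, edgeR), and the medians were -0.52 for the partners, -0.23 for the other mitotic kinases, -0.49 for the G2/M genes and -0.32 for the G1/S genes. Without DMSO replicate 1, 2 partners and 2 G2/M genes passed and none of the other pathway lists. Some counts after compound 6 were higher in other fits. Without either compound 4 replicate the G1/S genes numbered 10, the G2/M genes 14 and the transcription factors 2, and without compound 6 replicate 1 the G1/S genes numbered 14 and the transcription factors 3, while the G2/M genes stayed at 9 and the partners at 11. Without compound 5 replicates 1 and 2 the other mitotic kinases numbered 1 and 2, the G2/M genes 4 and 6, and the G1/S genes 2 in both. After compound 5 the counts fell from 13 to 5 for the partners and from 10 to 5 for the G2/M genes without its replicate 1, and the partners numbered 7 without DMSO replicate 2. The G1/S genes numbered 7 without compound 5 replicate 1, and the other mitotic kinases 2 or 3 without either compound 5 or either DMSO replicate. After compound 4 the G2/M genes numbered 9 and the other mitotic kinases 3 without DMSO replicate 2, while the G1/S genes numbered 3 and 1 without DMSO replicates 1 and 2. The transcription factors numbered 0 without either DMSO replicate after compounds 4 and 5, 0 after compound 5 without either of its replicates, and 1 after compound 4 without its replicate 2 or either compound 5 replicate. Among the other named genes, CHEK1 after compound 6 passed in 4 of these 8 fits and PLK4 in 3, with CHEK1 at -0.49 and PLK4 at -0.82 without compound 6 replicate 2. PTTG1 after compound 4 passed in 4, with -0.35 without compound 4 replicate 1. RBL1 after compound 5 passed in 4, MYBL2 after compound 4 in 6, BIRC3 after compound 4 in 5 and SFN after compound 4 in 7, each without a change in value of over 1.5 times. GADD45A after compound 6 passed in 3 fits and was 0.30 without compound 6 replicate 2, and PPP2CB passed in 1 fit after compound 4 and in 4 after compound 5. For the phosphatases, brakes and paralogs the counts in each direction lay between 0 and 5 over all these fits.

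Across the 8 samples, the 45 pairs among the 10 genes had Pearson correlations of log2 CPM between 0.80 and 0.99, with a median of 0.95. The samples share libraries for all genes and fall into DMSO and treated ones, so these values are a description. Among 10533 other genes whose mean level reached 5 CPM, those most like the mean profile of the 10 genes over the 8 samples were KIF20A at 0.996, RACGAP1 at 0.993, NUSAP1 at 0.991, NASP at 0.990 and MELK at 0.989. RACGAP1 is a subunit of the centralspindlin complex of cytokinesis, NUSAP1 bundles spindle microtubules, NASP is a histone chaperone and MELK is a cell cycle kinase. RACGAP1 had 48.5 and 52.8 CPM in DMSO and between 22.8 and 35.3 CPM in the treated samples, so its groups did not overlap with DMSO either.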

How the data were processed

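Estimated counts per gene were made by the authors with Salmon 1.5.0 on GENCODE 38 transcripts (GRCh38) and summed to genes with tximeta, after quality control with FastQC 0.12.0. The deposited values are rounded and not scaled. The authors tested them with DESeq2 1.38.3. Totals ranged from 9472261 to 13308975 counts. Symbols came from a table of identifiers, coordinates, exon lengths and 31-base words from GENCODE 29, and promoters from RefSeq (GRCh38.p14).

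Here counts were tested in R 4.3.3 with edgeR 4.0.16 (TMM factors 0.958 to 1.04, filterByExpr, quasi-likelihood fit of 4 groups over 8 samples, 13404 genes, Benjamini-Hochberg adjusted p under 0.05). SEs were derived from the F statistic, and intervals cover 95%. Scripts were tested on simulated data. Figures were drawn with matplotlib 3.10.9. Alternatives were DESeq2 1.42.0, limma-voom 3.58.1, RLE, upper-quartile and library-size scaling, no filter, a filter of 10 counts per sample, a replicate block, only the groups compared, a cutoff of 0.01 and leaving out each of the 8 samples.

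The 10 genes and the lists were chosen with earlier results of these data known. From the other lists, the lowest and the highest gene per comparison were named if their mean reached 1 CPM, and the 5 genes most correlated with the mean profile among genes of at least 5 CPM. The column names of replicate 1 of compounds 4 and 5 say merged, with a meaning not given in the sources used here. The replicates differed by more than sampling noise over all tested genes. Chi-square per degree of freedom was highest in compound 4 at 18.0, and was 9.35 in compound 6, 6.55 in compound 5 and 5.67 in DMSO. The numbers pair the samples because the labels give them as days 1 and 2. Deviations from the group means of samples with the same number correlated between -0.11 and 0.22. Protein identity between the kinases was not analysed here. No value of the authors' own comparisons was used.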

Additional observations from a re-analysis of the deposited data

How the results depend on the processing

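The 10 genes fell with compound 4 under all 10 alternatives and in all 8 fits that left out a replicate. With compound 5 the count was 8 to 10 under the alternatives and 1 to 10 when a replicate was left out. With compound 6 it was 10 under every alternative but the cutoff of 0.01, where it was 0 with 10 genes at an unadjusted p under 0.05, and 0 to 10 when a replicate was left out. For compound 4 against compound 5 the median ran from -0.50 to -0.28 when a replicate was left out. Over all tested genes 7.91% were lower with DESeq2, 8.03% with RLE scaling and 8.73% with at least 10 counts in every sample. The share was 7.18% without a filter and 1.1% at the cutoff of 0.01. Among the 10 genes the count of 2 became 5 with DESeq2, with RLE scaling and with at least 10 counts in every sample. The count was 6 without a filter and 0 at the cutoff of 0.01. For compounds 4 and 5 against compound 6 it was 0 in every fit. The causes were not tested. The replicate block left the counts at 10, 9 and 10 against DMSO and at 2, 0 and 0 between compounds, and among the 10 genes against DMSO it changed the calls of INCENP and FOXM1 with compound 5 and no other call.

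No change of the 10 genes from DMSO turned its direction. In compound 5 against compound 6, CDCA8 became 0.0075 with DESeq2, 0.0084 with RLE scaling and 0.013 without a filter. With upper-quartile scaling and with library size alone AURKA became -0.056 and -0.053, TPX2 -0.071 and -0.067, and NEK2 -0.037 and -0.034. Against DMSO, CCNE1 became -0.013 and -0.034 with compound 4 and CDT1 -0.063 and -0.081 with compound 5 under the same scalings. NEK7 became -0.020 with compound 6 and library size alone, and CCNE1 0.0035 with compound 6 and at least 10 counts in every sample. When a replicate was left out, values of compound 4 against compound 6 ranged from -0.358 to 0.0245 for AURKA and from -0.39 to 0.16 for BIRC5, and CDC25C in compound 4 against compound 5 from -0.41 to 0.0163. In compound 5 against compound 6 the ranges were -0.15 to 0.24 for AURKA, -0.0281 to 0.27 for AURKB, -0.16 to 0.39 for BIRC5, -0.38 to 0.0369 for CDC25C, -0.21 to 0.16 for CDCA8, -0.0816 to 0.19 for NEK2, -0.0213 to 0.31 for PLK1 and -0.15 to 0.21 for TPX2. Against DMSO they were -0.0715 to 0.0919 for CCNE1 with compound 4, -0.10 to 0.12 for CCNE1, -0.23 to 0.12 for CEP192 and -0.10 to 0.14 for NEK7 with compound 6, and -0.0176 to 0.0903 for CDT1 with compound 5.

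Over all tested genes, scaling moved the median of compound 5 against DMSO from -0.03 to -0.12 with upper-quartile scaling and -0.14 with library size alone, and the share of higher genes among those called from 49.3% to 36.6% and 33.3%. For compound 4 against compound 5 that share moved from 50.5% to 36.2% with DESeq2, 67.0% and 68.7% with the 2 scalings, and for compound 5 against compound 6 from 48.0% to 60.6%, 28.7% and 28.4%. The genes called lower with compound 6 numbered 215, 594 without a filter and 21 at the cutoff of 0.01. The 10 genes had at least 120 counts in each library. Over all tested genes the 2 samples of a group differed by more than sampling noise, and the parts of depth and sample number in the errors were not separated.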
